A study of Mus musculus with 9 samples.

Results

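The cytosolic ribosomal protein genes encode the proteins of the ribosome that translates nuclear messenger RNA. Membership was set by symbol alone, though with earlier results of these data known. The rule took Rpl or Rps followed by a number and at most a short suffix, plus Rpsa, Rplp0, Rplp1 and Rplp2. It left out the Rps6k kinases and the symbols that hold -ps. The rule found 84 genes among 23282 entries of the count tables, 51 of the large subunit and 33 of the small subunit. All 84 had coordinates in the GENCODE M21 annotation (mm10). In 83 of them the counts passed the filter for testing. The exception was Rpl10l, a retrogene copy of Rpl10, with 5 counts in all, in 2 of the 9 libraries.

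The libraries are 3′-tag RNA libraries (Lexogen QuantSeq) of back skin from wild-type C57BL/6 (B6) mice whose ages the labels do not give, with 3 libraries a group. Unstripped skin (None) is labelled with control cream, although the protocol places cream on stripped skin only, so whether cream reached it is not known. Stripped control skin had been tape-stripped, which pulls off the outer epidermis and inflames the skin, and was given control cream. NGO-treated skin was tape-stripped and given a cream with nano-sized graphene oxide (NGO), 50 µg in 100 µL for each mouse. Skin was taken 24 h after treatment. Whether the replicates are separate animals is not said in the labels. The p-values therefore reflect only how far these libraries differ among themselves, which may be technical.

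A ribosome holds a single copy of most of these proteins, beside ribosomal RNA cut from a long precursor, and cells make the proteins in matched amounts. Their messenger RNAs are abundant and carry a terminal oligopyrimidine (TOP) start, a C followed by a run of C and U, through which the mTOR kinase controls their translation. In skin, ribosome production is high in the dividing basal layer of the epidermis and falls as keratinocytes mature.

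The start regions are shown for 6 genes on which the results turn, because the TOP start is the shared mark of the family. Rpl3, also among the called genes below, had no entry among the RefSeq promoters and so has no window. Each window runs from 25 bases before to 25 bases after the RefSeq start (GRCm38.p6), 5′ to 3′ on the gene's strand, and capitals mark its longest run of C and T, the leftmost where runs tie. Where the table gives several starts for a gene, the start with the longest run was taken among those inside the GENCODE gene or at most 100 bases before it. The window of Rpl22 lies at chr4:152325701-152325750 on the plus strand, that of Rps16 at chr7:28350664-28350713 (plus), Rpl34 at chr3:130730313-130730362 (minus), Rpl6 at chr5:121204476-121204525 (plus), Rps10 at chr17:27635220-27635269 (minus) and Rpl3l at chr17:24727801-24727850 (plus). The start used lies 16 bases before the GENCODE gene start in Rpl22, 6 to 61 bases after it in Rps16, Rpl34, Rpl6 and Rpl3l, and 1425 bases after it in Rps10.
Rpl34: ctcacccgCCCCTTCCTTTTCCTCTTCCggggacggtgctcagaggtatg
Rps10: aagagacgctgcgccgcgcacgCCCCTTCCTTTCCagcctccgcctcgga
Rpl6: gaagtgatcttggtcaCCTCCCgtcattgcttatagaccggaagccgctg
Rpl22: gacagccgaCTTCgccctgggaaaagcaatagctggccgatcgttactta
Rps16: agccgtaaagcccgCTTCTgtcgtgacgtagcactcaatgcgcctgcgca
Rpl3l: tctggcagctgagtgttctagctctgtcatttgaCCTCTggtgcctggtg

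The run was 20 bases long in Rpl34 and 13 in Rps10. It was 4 to 6 bases in the other windows, which says only that no longer run lies within these letters. Of the 84 genes, 63 had an entry in the RefSeq promoter table. A run of at least 8 C or T on the gene's strand lay within 25 bases of a start in 33 of those 63 (52.4%), against 22.3% of all 27025 promoters. The motif CCGGAAG, searched on both strands over 300 bases (250 before and 50 after the start), was present in 26 (41.3%), against 9.93%. The motif ATGGCGGC, searched the same way, was present in 4 (6.35%), against 2.6%. The 2 motifs were counted separately, so that their sites may overlap. These matches are descriptions of sequence, not of binding.

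Ribosomal protein genes took a smaller share of the counts in stripped control skin than in the other groups. The 3 unstripped libraries held 5.09, 4.01 and 4.09%. Stripped control libraries held 1.82, 1.88 and 2.11%, and NGO-treated ones 4.49, 3.78 and 3.71%. Every stripped control library lay below all 6 others, while the unstripped and NGO-treated libraries overlapped. The means were 4.40 ± 0.60% (SD, n = 3), 1.93 ± 0.15% and 3.99 ± 0.43%. The mean share was 2.27 times as high in unstripped as in stripped control skin, 2.06 times as high in NGO-treated as in stripped control skin, and 0.908 times the unstripped share in NGO-treated skin. With 3 libraries against 3, an exact two-sided permutation test cannot go below p = 0.1, so none is given. Both subunits showed the pattern: the large subunit took 2.55, 1.14 and 2.37% on average in the 3 groups, and the small subunit 1.85, 0.799 and 1.62%.

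**Figure D1:**
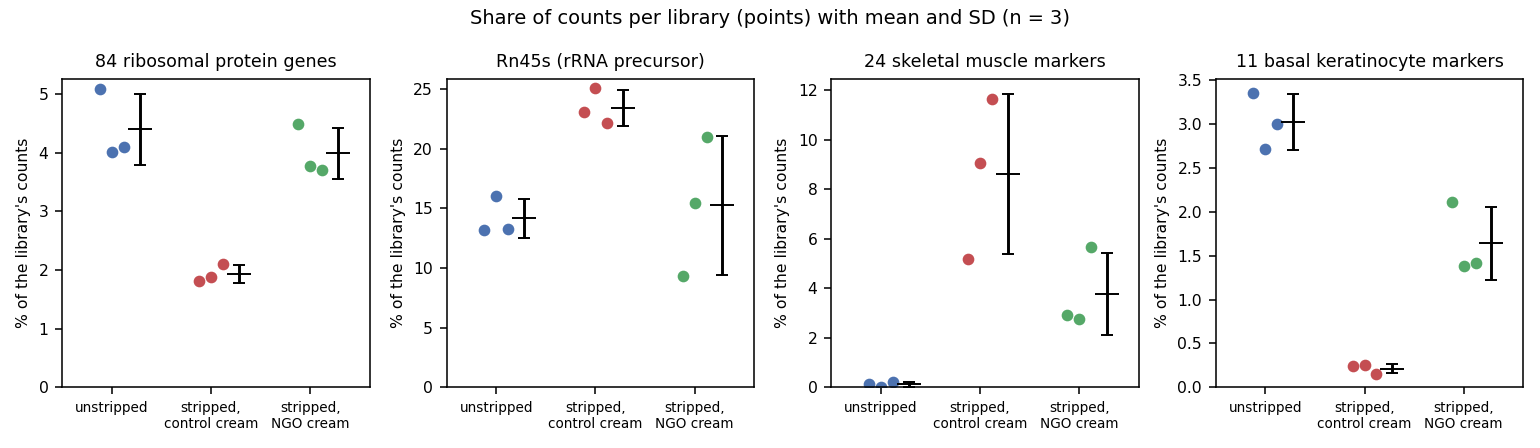
Share of each library's counts, in percent, for the 84 ribosomal protein genes, the ribosomal RNA precursor Rn45s, 24 skeletal muscle markers and 11 basal keratinocyte markers. Points are libraries and bars are the mean and SD (n = 3). The stripped control libraries, at 1.82 to 2.11%, lie below all others for the ribosomal protein genes, and they also hold the highest muscle and lowest basal keratinocyte group means.

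Other shares of the libraries also differed between the groups, though not all in the same direction or with the same return in NGO-treated skin. Rn45s, the precursor of ribosomal RNA, took 14.2 ± 1.63, 23.4 ± 1.51 and 15.3 ± 5.82% of the counts in unstripped, stripped control and NGO-treated skin. Whether these tags came from the precursor or from the ribosomal RNA cut from it was not tested. The 24 skeletal muscle markers took 0.0301 to 0.209% in unstripped skin, 5.19 to 11.6% after stripping with control cream and 2.74 to 5.66% with NGO. All 24 were called higher in stripped control than in unstripped skin. The 11 basal keratinocyte markers, such as Krt5 and Krt14, took 2.72 to 3.36, 0.152 to 0.254 and 1.38 to 2.12%. Suprabasal keratinocyte markers averaged 1.21, 0.0282 and 0.123%, and neutrophil markers 0.0191, 0.554 and 0.124%. Library totals ran from 2019739 to 6303322 counts, and 15600 ± 918, 13000 ± 491 and 14120 ± 271 genes were detected. In such bulk samples fewer cells of a type and less RNA per cell cannot be told apart.

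Taking Rn45s out of the totals left the ribosomal protein share 2.03 times as high in unstripped, and 1.86 times as high in NGO-treated, as in stripped control skin. Taking out the muscle, adipocyte and red blood cell markers as well left ratios of 1.79 and 1.72. The lowest unstripped and NGO-treated libraries then stood at 4.73 and 4.62%, still above the highest stripped control library at 3.19%. Only the listed markers were taken out, so other RNA of those tissues stayed in the totals. The part of the muscle, keratinocyte and neutrophil content in these differences was not tested.

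The comparison of stripped control with unstripped skin asks what tape stripping did to the family. In it 19 of 83 tested members fell and 1 rose, on edgeR's quasi-likelihood test at a Benjamini-Hochberg adjusted p under 0.05 over all 13740 genes tested (a gene past this is termed called). The largest falls among members with the smallest p were those of Rps16, a small subunit protein that reaches toward the transfer RNA in the P site, and of Rpl22, a large subunit protein. The single rise was that of Rpl3l, the form of Rpl3 found in striated muscle. The 22.9% of members called lower compares with 7.64% of all genes, and the 1.2% called higher with 5.97%. Well-counted genes are called more often: of 3671 genes at a mean of 50 CPM (counts scaled to a common library size) or more, 15.2% were called lower and 15% higher, beside 22.5% and 1.25% of the 80 members at that level. The 2 sets are not matched in precision, since the median standard error was 0.4415 over those genes and 0.3083 over those members.

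The members moved together in direction more than in calls. The fitted log2 fold change was below 0 in 76 of 83 members, against 55.5% of all genes. In 52 members (62.7%) every stripped control library lay below every unstripped library, against 24.7% of all genes and 29.2% of the well-counted ones. For 1 member, Rpl3l, they all lay above, against 13.8% and 23.2%. The median log2 fold change was -0.74 over members, -0.20 over all genes and -0.08 over the well-counted genes. These scales depend on the scaling of the libraries. With the size factors of the RLE method the median of all genes moved to -0.07 and that of the members to -0.61, so the distance between them was -0.54 under either. It was -0.31 without stripped control replicate 1 and -0.29 with the replicate number as a block. With limma-voom all genes had a median of -0.62 and the members one of -0.62, so by that fit the members' median did not stand apart from that of all genes. In calls, the same fit had 24 of 83 members lower and 1 higher, beside 8.62% of all genes lower and 10.2% higher.

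**Figure D2:**
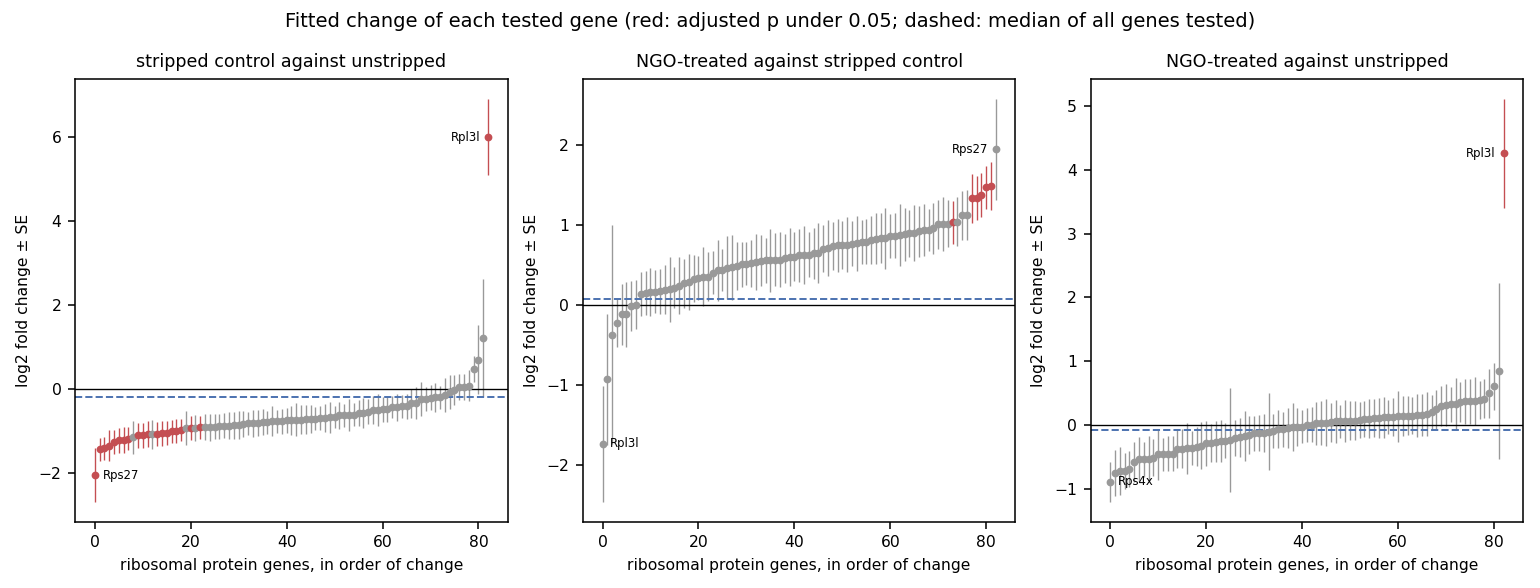
Fitted log2 fold change with its standard error for the 83 tested members in each of 3 comparisons, ordered by size within each panel. Red points passed an adjusted p of 0.05, and the dashed line is the median of all 13740 genes tested. Most members lie below 0 in stripped control against unstripped skin (76 of 83), above 0 in NGO-treated against stripped control skin (75 of 83), and on both sides in NGO-treated against unstripped skin.

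Among the small subunit genes, Rps16 stood at 1269, 851 and 963 CPM in unstripped skin, 374, 383 and 388 after stripping with control cream and 1113, 900 and 875 with NGO. The stripped control libraries lay within a narrow range well under all others. The change after stripping was -1.43 ± 0.27 (log2, SE; adjusted p = 0.00284). Rps10, a protein of the small subunit's head near the entry of messenger RNA, stood at 139, 141 and 142, then 55.1, 68.5 and 59.5, then 139, 164 and 158 CPM. Its groups did not overlap on stripping either, and its change was -1.20 ± 0.31 (adjusted p = 0.0189). Rps27, which has a zinc finger, showed the most negative fitted change of all members, -2.05 ± 0.63 (adjusted p = 0.047), but at low levels of 35.2 to 39.9 CPM in unstripped and 5.82 to 12.8 CPM in stripped control skin. Rps24, Rps26, Rps20, Rps4x, Rps14 and Rps15a also fell, by 1.35, 1.01, 1.05, 1.08, 1.06 and 0.92 on the log2 scale.

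Among the large subunit genes, Rpl22 stood at 1765, 1244 and 1428 CPM in unstripped skin, 474, 609 and 585 after stripping with control cream and 1457, 1463 and 1698 with NGO. The stripped control libraries were again the lowest of all, and the change was -1.41 ± 0.27 (adjusted p = 0.00286). Rpl31 stood at 301, 234 and 282, then 107, 105 and 127, then 179, 156 and 163 CPM, so that here the NGO-treated libraries lay between the other groups and overlapped neither. Its change after stripping was -1.27 ± 0.29 (adjusted p = 0.00963). Rpl6 and Rpl39 fell by 1.18 and 1.22 (adjusted p = 0.0112 and 0.0141), and Rpl23, Rpl3, Rpl7, Rpl13 and Rpl34 by 1.07, 1.10, 1.10, 0.99 and 0.91.

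Rpl5 and Rpl11 form a particle with 5S ribosomal RNA that can also bind Mdm2, the ubiquitin ligase of p53. Rpl5 stood at 686, 562 and 549 CPM in unstripped and 305, 290 and 325 in stripped control skin and fell by 0.97 ± 0.26 (adjusted p = 0.025). Rpl11 stood at 85.2, 133 and 126 and at 56.1, 85.0 and 90.5 CPM, with overlapping groups and a fitted change of -0.57 ± 0.35 (adjusted p = 0.339). The difference between these changes was not tested.

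Rplp0, Rplp1 and Rplp2 build the stalk that recruits elongation factors. Rplp1 had the highest level of the family, 4697, 2656 and 2648 CPM in unstripped skin, 1449, 1563 and 2285 after stripping with control cream and 2970, 2308 and 2631 with NGO. Unstripped replicate 1 held by far the most. Its fitted change on stripping, -0.92 ± 0.31, missed the threshold (adjusted p = 0.0696), as did those of Rplp0 (-0.91 ± 0.32, 0.079) and Rplp2 (-0.80 ± 0.31, 0.112), although the groups did not overlap for any of the 3. Of the other most abundant members, Rps9 had a fitted change of -0.76 ± 0.30 (adjusted p = 0.113).

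Not all members had lower levels. Rpl24, a large subunit protein that reaches across to the small subunit, stood at 430, 256 and 275 CPM in unstripped and 500, 354 and 483 in stripped control skin, overlapping, with a fitted change of 0.48 ± 0.30 (adjusted p = 0.35). Rps2 had a fitted change of 0.06 ± 0.31. When each library was scaled to its summed ribosomal protein counts, so that a change is relative to the family, only Rpl24 (1.30 ± 0.30, adjusted p = 0.00924) and Rpl3l (6.70 ± 0.89, adjusted p = 0.000219) were called in this comparison, both higher. On that scale the calls over all genes split into 1683 higher and 498 lower, in place of 820 and 1050. Over the members without Rpl3l and Rpl10l, the fitted changes had an SD of 0.475, beside a median standard error of 0.309.

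Of the 20 calls, those of Rpl3l, Rps16, Rpl22, Rpl31 and Rpl6 were kept in all 9 fits that left out 1 library. Rpl39 was lost without unstripped replicate 3 (adjusted p = 0.0536), Rps10 without unstripped replicate 2 or 3 (up to 0.0759), Rpl23 without unstripped replicate 1 or 2 or stripped control replicate 2 (up to 0.0862), Rpl5 without any unstripped replicate or stripped control replicate 2 (up to 0.0752), and Rpl3 without unstripped replicate 1 or 3 or stripped control replicate 2 or 3 (up to 0.0915). The remaining 10 calls were kept in 1 to 5 of the 9 fits, with adjusted p up to 0.164. The number called was 9, 7 and 7 without unstripped replicates 1, 2 and 3, 12 and 10 without stripped control replicates 1 and 2, and 10 without NGO-treated replicate 3. It was 13 with RLE factors and 8 when only the 2 groups were fitted. Of each number, 1 was higher. Fewer genes were called in several of these fits. The share of all genes called lower, 7.64% in the main fit, was 3.8, 4.34 and 4.29% without those unstripped replicates. It was 7.71 and 7.19% without those stripped control replicates and 6.01% without NGO-treated replicate 3. With RLE factors it was 6.78%, and with 2 groups 6.44%.

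**Figure D3:**
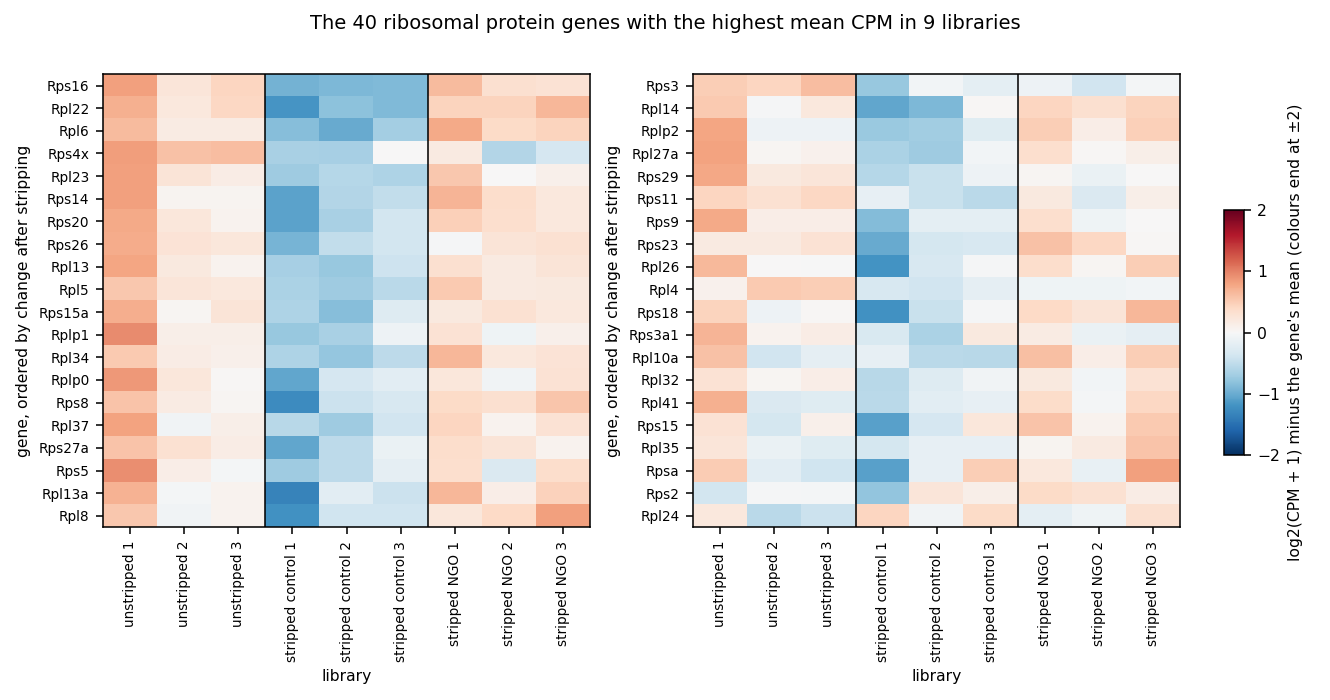
Level of the 40 members with the highest mean CPM in the 9 libraries, as log2(CPM + 1) minus the gene's mean over the libraries, with genes ordered by their change after stripping. The 3 stripped control columns are mostly blue (below the gene's mean). Rps16 and Rpl22 are low in all 3.

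The comparison of NGO-treated with stripped control skin asks what the NGO in the cream did after stripping. It shares the stripped control libraries with the comparison above, so the 2 sets of changes are not independent. In it 6 of 83 members rose and none fell: Rpl22, Rpl6, Rpl3, Rps16, Rps10 and Rpl34. The 7.23% called higher compares with 3.87% of all genes, but 7.5% of the members at a mean of 50 CPM or more compares with 8.8% of all genes at that level. The share called was thus no larger than in that set, although its median standard error was larger (0.4372, against 0.3079 for the members in it). The share called lower was 1.18% over all genes and 3.7% over the well-counted ones. The direction was shared more widely: 48 members (57.8%) had every NGO-treated library above every stripped control library, against 16.3% of all genes and 25.1% of the well-counted genes. For 1 member, Rpl3l, they all lay below, against 8.92% and 13.3%. The median log2 fold change was 0.62 over members, 0.07 over all genes and 0.14 over the well-counted genes. Members and all genes were thus 0.54 apart in this fit. Over the alternative fits this distance ran from 0.35 with limma-voom to 0.66 without NGO-treated replicate 2. In calls, limma-voom had 8 of 83 members higher and 0 lower, beside 1.42% of all genes higher and 1.59% lower.

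Rpl22, whose values are given above, rose by 1.47 ± 0.27 (log2, SE; adjusted p = 0.00904). Rpl3, a core protein of the large subunit near the peptidyl transferase centre, stood at 335, 230 and 263 CPM in unstripped skin, 138, 131 and 118 after stripping with control cream and 467, 317 and 305 with NGO. Its NGO-treated libraries all lay above the stripped control ones and overlapped the unstripped ones, and it rose by 1.49 ± 0.30 (adjusted p = 0.0146). Rpl6 stood at 721, 525 and 522, then 257, 232 and 291, then 789, 607 and 634 CPM, and rose by 1.38 ± 0.28 (adjusted p = 0.0141).

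Rps16 and Rps10 rose by 1.33 ± 0.27 and 1.33 ± 0.31 (adjusted p = 0.0149 and 0.0274). Rpl34 stood at 857, 662 and 637, then 386, 346 and 415, then 938, 687 and 717 CPM, and rose by 1.03 ± 0.27 (adjusted p = 0.0444). Of these genes, Rpl34 and Rps10 have the longest pyrimidine runs among the windows shown above, and Rpl22 and Rps16 have short ones. Rps27 had the largest fitted change, 1.94 ± 0.63, without passing the threshold (adjusted p = 0.0931), with 24.0, 44.9 and 36.6 CPM in NGO-treated skin.

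Rpl5 had a fitted change of 0.94 ± 0.26 (adjusted p = 0.0556) and Rpl11 one of 0.28 ± 0.35 (adjusted p = 0.712). For the stalk genes Rplp0, Rplp1 and Rplp2 the fitted changes were 0.64 ± 0.32, 0.58 ± 0.31 and 0.92 ± 0.31 (adjusted p = 0.265, 0.308 and 0.111). Rps14 and Rps20, among the 5 most abundant members, had 1.12 ± 0.31 and 1.01 ± 0.29 (adjusted p = 0.0534 and 0.0634). The lowest fitted changes were those of Rpl3l (-1.74 ± 0.72, adjusted p = 0.182), Rps4l (-0.93 ± 0.82) and Rpl39l (-0.37 ± 1.37).

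The call of Rpl22 was kept in all 9 fits that left out 1 library. Those of Rpl3, Rpl6 and Rps16 were lost only without NGO-treated replicate 1 (adjusted p = 0.0737, 0.0698 and 0.0729). Without that library 1 member was called, beside 1.38% of all genes. Rps10 was kept in 4 and Rpl34 in 2 of the 9 fits. When only the 2 groups were fitted no member was called, 29 had an unadjusted p under 0.05, and 118 genes were called in all. DESeq2 called 13 members, all higher, but it also called 8.3% of all genes higher and 5.42% lower. Scaled to the summed ribosomal protein counts, no member was called by edgeR (9 at an unadjusted p under 0.05).

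In NGO-treated against unstripped skin, 1 of 83 members was called, Rpl3l, which was higher. The background was 2.06% of all genes called higher and 0.451% lower, and 5.97% and 1.39% of the well-counted genes. The median log2 fold change was -0.00 over members and -0.07 over all genes, and 41 members lay above 0 and 42 below, where 53.7% of all genes lay below. In 15 members (18.1%) every NGO-treated library lay below every unstripped library, against 14.4% of all genes and 14.5% of the well-counted ones. In 3 members (3.61%) they all lay above, against 11.9% and 19.6%. The lowest fitted changes were those of Rps4x (-0.89 ± 0.31, adjusted p = 0.214), Rps24 (-0.75 ± 0.36) and Rpl30 (-0.72 ± 0.38). Rps4x, the X-linked form of a core small subunit protein, stood at 554, 468 and 476, then 199, 196 and 314, then 352, 208 and 246 CPM, with the NGO-treated libraries below all unstripped ones. A median near 0 does not show that single members had the same level, since the standard errors were about 0.31 on the log2 scale (median 0.309).

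Between replicates the members varied less than most genes. The median SD of log2 CPM over members was 0.273 (unstripped), 0.362 (stripped control) and 0.211 (NGO-treated). Over the 9889 genes at 10 CPM or more it was 0.400, 0.838 and 0.573. Members are counted more deeply than most of those genes, which by itself lowers this SD.

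Rpl3l departed from the rest of the family. In striated muscle it takes the place of Rpl3 in the ribosome. It stood at 2.05, 0 and 4.11 CPM in unstripped, 81.8, 118 and 201 in stripped control and 38.4, 19.8 and 61.4 in NGO-treated skin, and the 3 groups did not overlap. The fitted log2 change was 6.00 ± 0.91 on stripping (adjusted p = 0.000598) and 4.26 ± 0.85 in NGO-treated against unstripped skin (adjusted p = 0.014). The second call was lost without unstripped replicate 1 or NGO-treated replicate 3 (adjusted p up to 0.0702). Relative to Rpl3, the counts of Rpl3l were 0.613, 0 and 1.56 per 100 in unstripped skin, 59.1, 89.9 and 170 after stripping with control cream and 8.24, 6.25 and 20.1 with NGO, so that in stripped control replicate 3 the muscle form had more tags than Rpl3 itself.

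The muscle markers moved with Rpl3l. Per 10000 counts of the 24 skeletal muscle markers, Rpl3l had 18.3, 0 and 22.8 counts in unstripped skin, 15.2, 10.5 and 13.3 after stripping with control cream and 14.6, 8 and 10.4 with NGO, and the groups overlapped on this scale. The unstripped values rest on 6, 0 and 14 counts of Rpl3l. The elongation factor gene Eef1a2, which replaces Eef1a1 in muscle and nerve, had 0.742, 0.037 and 0.116 counts per 100 of Eef1a1, then 19.8, 53.3 and 70.1, then 6.69, 3.31 and 27.7. Its ratios were highest in the same group as those of Rpl3l, apart from an overlap of NGO-treated replicate 3 with stripped control replicate 1.

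**Figure D4:**
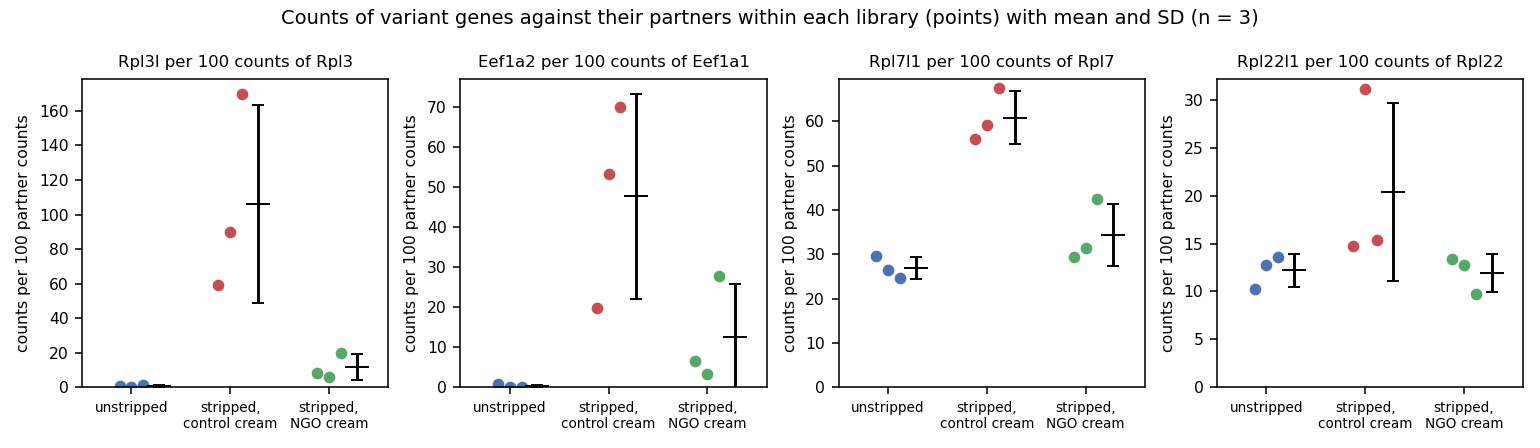
Counts of 4 variant genes per 100 counts of their partner in each library (points), with mean and SD (n = 3; the axes start at 0 and cut off the lower bar for Eef1a2). Rpl3l, Eef1a2, Rpl7l1 and Rpl22l1 all show their highest group means in stripped control skin, where Rpl3l reaches 59.1 to 170 per 100 counts of Rpl3.

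The ratios of Rpl7l1, Rpl22l1 and Rps27l to their partners were also highest in all 3 stripped control libraries, but the levels of these variants were not called changed. Rpl7l1, a relative of Rpl7 that takes part in making the large subunit, stood at 99.2, 75.3 and 73.6, then 54.0, 103 and 106, then 72.4, 79.4 and 90.2 CPM, with all groups overlapping. Per 100 counts of Rpl7, which fell, it had 29.6, 26.4 and 24.7, then 55.9, 59.2 and 67.4, then 29.4, 31.5 and 42.4, and the stripped control ratios lay above all others. Rpl22l1 had 10.3 to 13.6 counts per 100 of Rpl22 in unstripped skin, 14.7 to 31.1 after stripping with control cream and 9.71 to 13.4 with NGO. Rps27l, a target of p53, had 181, 308 and 259 per 100 of Rps27, then 871, 1460 and 592, then 178, 154 and 289, but the stripped control ratios rest on only 17, 18 and 40 counts of Rps27. No change of Rpl7l1, Rpl22l1 or Rps27l was called: their fitted changes on stripping were 0.09 ± 0.38, -0.62 ± 0.37 and -0.25 ± 0.40. Rpl39l and Rps4l had means under 50 CPM and standard errors of 1.39 and 0.82, too wide to place.

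Several members have near-identical copies that hold many counts. Rpl37rt held 52794 counts over the 9 libraries against 11788 of Rpl37, Rps27rt 4217 against 939 of Rps27, and Rplp2-ps1 53674 against 22461 of Rplp2. Rpl34-ps1 held 18764 against 20496 of Rpl34, Rpl31-ps12 5178 against 5824 of Rpl31, and Rpl14-ps1 10925 against 17098 of Rpl14. Rps15a-ps6 held 6079 against 17241 of Rps15a. How the authors assigned reads with several matches is not stated in the labels. The single values of members with such copies, among them Rpl37, Rps27, Rplp2, Rpl34, Rpl31, Rpl14 and Rps15a, are therefore uncertain. With the copies' counts added to their parents, 19 members were called on stripping (18 lower and 1 higher) and 6 in NGO-treated against stripped control skin (all higher). Of all genes, 7.63% were then called lower and 5.97% higher on stripping, and 3.87% higher in NGO-treated against stripped control skin. With the copies added, the family's share was 2.25 times as high in unstripped, and 2.05 times as high in NGO-treated, as in stripped control skin.

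Other parts of the translation machinery are given by lists. Of all genes, 5.97% were called higher and 7.64% lower on stripping, and 3.87% and 1.18% in NGO-treated against stripped control skin, and the counts of each list stand beside these shares. Differences between lists were not tested. The list of 5 ribosomal proteins outside the symbol rule included Fau, made as a fusion with a ubiquitin-like protein, and Gnb2l1 (Rack1). All 5 had fitted changes below 0 on stripping (median -0.73) and above 0 in NGO-treated against stripped control skin (median 0.67). Only 1 was called, Rps27rt, which is the near-identical copy of the member Rps27 given above. Rps27rt fell by 1.18 ± 0.35 on stripping (adjusted p = 0.0382). The list of 25 further TOP transcripts, which shares genes with the other lists, had 3 (12%) called lower and 0 higher on stripping (median -0.65) and 3 (12%) called higher and 0 lower in NGO-treated against stripped control skin (median 0.66). Gas5, a noncoding host of small nucleolar RNAs, fell by 1.53 ± 0.33 on stripping (adjusted p = 0.00716). Npm1, a nucleolar chaperone of ribosome assembly, stood at 255 ± 16.4, 162 ± 46.6 and 428 ± 30.5 CPM and rose by 1.40 ± 0.30 in NGO-treated against stripped control skin (adjusted p = 0.0195). Tpt1, a classical TOP transcript, stood at 1561 ± 309, 1345 ± 273 and 1312 ± 258 CPM, with a fitted change on stripping of -0.22 ± 0.28 (adjusted p = 0.70).

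Of 11 genes of the elongation factor list, 1 was called higher (Eef1a2) and 3 lower on stripping, with a median of 0.13. The list, and the 3 called lower, include Eef2k, which encodes the kinase of eEF2 and not an elongation factor. Eef1b2, an exchange factor for eEF1A, stood at 555 ± 97.4, 258 ± 41.2 and 596 ± 17.0 CPM, fell by 1.11 ± 0.27 on stripping (adjusted p = 0.015) and rose by 1.21 ± 0.27 in NGO-treated against stripped control skin (adjusted p = 0.0248). Eef1a1 and Eef2k fell by 1.16 ± 0.35 and 2.61 ± 0.71 on stripping. Eef2, which moves the ribosome along the message, had a fitted change of 0.37 ± 0.29 on stripping (adjusted p = 0.468). Of 42 initiation factor genes, 2 (4.76%) were called higher and 0 lower on stripping (median -0.27), no more than among all genes. Eif1, which helps select the start codon, stood at 221 ± 26.4, 564 ± 72.3 and 322 ± 44.6 CPM and rose by 1.35 ± 0.27 (adjusted p = 0.00437). Eif3c rose by 1.23 ± 0.30 in NGO-treated against stripped control skin (adjusted p = 0.0334), the only initiation factor called there.

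Ribosome biogenesis genes, 104 tested, had a median of -0.01 on stripping, with 3 (2.88%) called higher and 3 lower, both below the shares of all genes. In NGO-treated against stripped control skin their median was 0.65, with 4 (3.85%) called higher and 0 lower, and in NGO-treated against unstripped skin it was 0.63, where that of the ribosomal protein genes was -0.00. In the latter comparison 36 of the 104 (34.6%) had every NGO-treated library above every unstripped one, against 11.9% of all genes and 19.6% of the well-counted ones. In it 2 (1.92%) were called higher, against 2.06% of all genes. Gnl3 (nucleostemin), a nucleolar GTPase, stood at 74.6 ± 1.67, 153 ± 27.6 and 254 ± 44.7 CPM, and was higher by 1.77 ± 0.31 in NGO-treated than in unstripped skin (adjusted p = 0.00598). Taf1d, a factor of RNA polymerase I, stood at 143 ± 7.56, 121 ± 41.0 and 427 ± 171 CPM and was higher by 1.58 ± 0.36 (adjusted p = 0.0315). As a share of counts the biogenesis genes took 0.644 ± 0.0138% in unstripped skin, 0.559 ± 0.0325% after stripping with control cream and 0.984 ± 0.0398% with NGO, and no NGO-treated library overlapped the others. Of 77 tested genes of the mitochondrial ribosome, 4 (5.19%) were called higher and 2 (2.6%) lower on stripping, with a median of 0.11. In NGO-treated against stripped control skin 2 (2.6%) were called higher and 1 (1.3%) lower, with a median of 0.14. Mrpl17 rose by 1.53 ± 0.33 on stripping (adjusted p = 0.00651) and fell by 1.28 ± 0.32 in NGO-treated against stripped control skin (adjusted p = 0.0386). Mrpl40, also called in both, went the other way, with no count in stripped control skin. Against a floor of 3 counts over that group, it was at least 58.3-fold lower there than in unstripped and 46.9-fold lower than in NGO-treated skin.

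**Figure D5:**
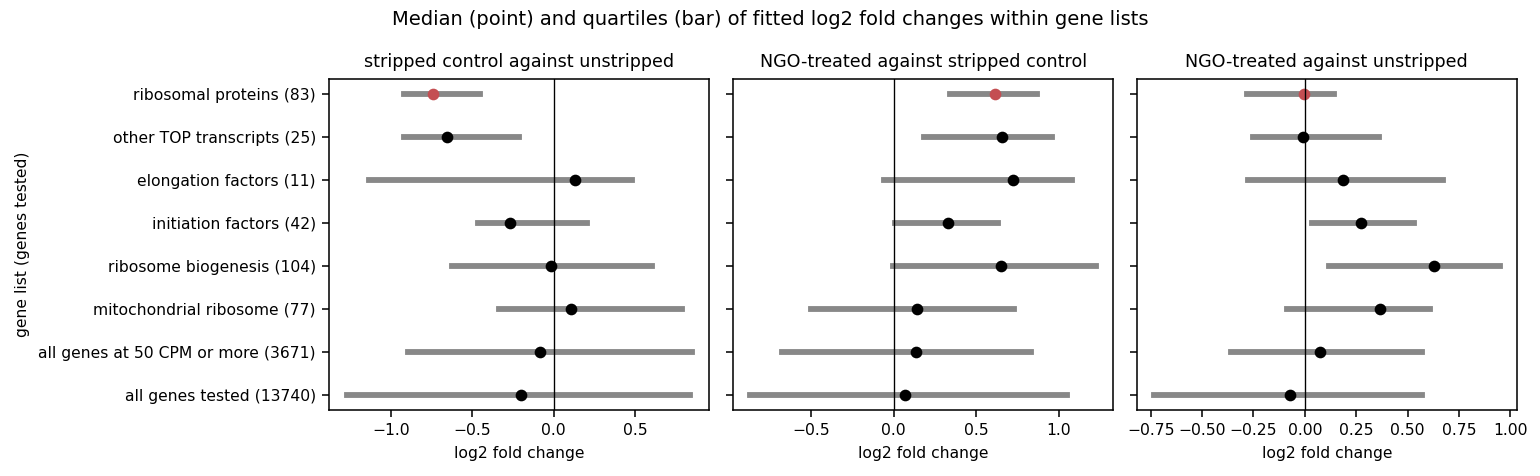
Median (point) and quartiles (bar) of the fitted log2 fold changes within gene lists in 3 comparisons, with the number of genes tested in brackets. The ribosomal protein genes (red) have medians of -0.74, 0.62 and -0.00, while the ribosome biogenesis list has -0.01, 0.65 and 0.63.

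Regulators of translation were mixed. Of 35 genes of the mTOR and eIF2 control list, 2 (5.71%) were called higher and 1 (2.86%) lower on stripping, neither above the share of all genes. Atf4, the transcription factor of the integrated stress response, stood at 190 ± 92.8, 581 ± 214 and 658 ± 38.3 CPM and rose by 1.61 ± 0.38 on stripping (adjusted p = 0.0127). Ppp1r15a, which directs dephosphorylation of eIF2α, stood at 15.4 ± 5.60, 86.9 ± 30.0 and 10.2 ± 7.95 CPM, rose by 2.49 ± 0.66 on stripping (adjusted p = 0.0234) and fell by 3.09 ± 0.68 in NGO-treated against stripped control skin (adjusted p = 0.0227). Mycl had no count in any stripped control library and was at least 59.8-fold lower there than in unstripped skin, against a floor of 3 counts over the group. Of 16 tested genes of the p53 and Mdm2 list, which the 5S particle can act on through Mdm2, 1 (6.25%) was called higher and 3 (18.8%) lower on stripping. Mdm2 itself stood at 88.1 ± 19.5, 138 ± 49.3 and 130 ± 14.2 CPM, with a fitted change of 0.65 ± 0.36 (adjusted p = 0.267), and Mdm4 fell by 1.46 ± 0.37 (adjusted p = 0.0181).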

How the data were processed

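RNA was measured in 9 back skin libraries, 3 a group, grouped by their labels. The authors deposited whole-number counts per gene symbol, 1 table a library; Bowtie2 and bedtools and the mm10 build come, per the submitters' processing notes, with no version, and the labels say nothing of strand handling. A tag is counted once per transcript, so counts were not divided by length. Repeated symbols (44 repeat entries, 35 symbols) stayed separate rows. Counts were analysed in R 4.3.3 with edgeR 4.0.16 (TMM factors, filterByExpr, robust quasi-likelihood fit of all 9 libraries, Benjamini-Hochberg adjustment over 13740 genes), and the code was tested on simulated data. CPM uses TMM-scaled totals, and SE is the fold change over the root of F. Alternatives used DESeq2 1.42.0, limma 3.58.1 (voom with sample weights), other scalings and filters, the 2 groups alone and left-out libraries. No 2 libraries were identical.

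The members and lists were chosen with earlier results of these data known. Named members were the called members with the smallest p (up to 10) and the 3 largest rises and falls in each comparison, the 5 most abundant, the variants with their partners, and members at 0 in a library with a mean of at least 10 CPM. From other lists the 3 called genes with the smallest p could be named. Other genes given (Rpl11, Rpl13, Rpl14, Rpl24, Rpl37, Rplp0, Rplp2, Rps2, Rps15a, Rps26, Eef2, Tpt1, Fau, Gnb2l1, Mdm2) were named for their roles or values, after their values were seen, and the comparison with genes at 50 CPM or more was added then too. Sequences are from RefSeq. Some genes are not reported here.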

Additional observations from a re-analysis of the deposited data

How the results depend on the processing

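Among the genes named by rule, none that was called changed sign under any alternative run. Other genes were not compared in sign across all of these runs. With scaling to the summed ribosomal protein counts, the 2 members called on stripping were both higher. In the main fit 19 were lower and 1 higher. On stripping, the number of members called was 13 with RLE factors, 2 with libraries scaled to the summed ribosomal protein counts (median log2 fold change 0.0072) and 8 with 2 groups fitted, and it ran from 7 to 21 when single libraries were left out. Of all genes, 13.7, 15.7 and 12.6% were called in those fits, and 7.83 to 14.3% with single libraries left out. In NGO-treated against stripped control skin the number of members called was 0 with scaling to the family (median -0.0748), 11 without a filter on low counts, 13 with DESeq2 and 0 with 2 groups fitted, and it ran from 1 to 8. The shares of all genes called in those fits were 7.36, 4.92, 13.7 and 0.951%, and 1.38 to 6.24% with single libraries left out. In NGO-treated against unstripped skin limma-voom called 5 (2 higher and 3 lower) beside 6.32% of all genes higher and 3.52% lower. There, fits with single libraries left out called 0 to 1, beside 1.45 to 3.33% of all genes. With single libraries left out, the members' medians ran from -0.85 to -0.55, from 0.46 to 0.80 and from -0.08 to 0.09. The change under family scaling follows from its construction, which sets the summed family equal, and the fits of 2 groups hold fewer samples; for the others the cause was not tested. Without Rn45s the share was 5.12, 2.52 and 4.70% in unstripped, stripped control and NGO-treated skin. Without the muscle, adipocyte and red blood cell markers as well, it was 5.13, 2.86 and 4.94%. It was 2.11% in stripped control skin with -ps rows added, and 5.01, 2.22 and 4.56% with -ps and rt rows, an alternative chosen after seeing the data. Left-out libraries gave 4.05 to 4.59, 1.85 to 1.99 and 3.74 to 4.13%. Libraries with the same replicate number correlated at -0.064 to 0.098 in their deviations from the group means, and those with different numbers at -0.15 to 0.072. No pairing by number was seen, but a weak one could lie within this range, so whether the numbers pair the samples is not known. With the number as a block, 14, 5 and 1 members were called in the 3 comparisons, beside 12, 4.07 and 2.28% of all genes. Genes with few counts, such as Rpl39l, Rps4l and Rps27, are limited by depth.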
